A study of Homo sapiens with 4 samples.

Results

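The genes described here encode the subunits of the 4 respiratory chain complexes and of the ATP synthase, read as mRNA in SK-N-BE(2) cells with and without knockdown of SAPCD2. SK-N-BE(2) is an established human neuroblastoma (NB) line that carries MYCN amplification. Members were the protein-coding genes of the GENCODE 44 annotation whose symbols begin with MT-ND, MT-CO, MT-ATP or MT-CYB, or follow the subunit names of complexes I to V (NDUFA, NDUFB, NDUFC, NDUFS and NDUFV with a number, SDHA to SDHD, UQCR, CYC1, COX4 to COX8, ATP5F, ATP5M and ATP5P). This gave 102 genes of the 64252 in the table, 13 encoded by mitochondrial DNA and 89 by the nucleus. The control group was stably transduced with scramble shRNA (sh-Scb, 2 libraries) and the knockdown group with shRNA against SAPCD2 (sh-SAPCD2, 2 libraries), with no other agent or allele in the labels. The study used more than 1 shRNA against SAPCD2, and the labels do not give which of them each sh-SAPCD2 library carried. The comparison asks how these subunit mRNAs differed between SAPCD2-knockdown cells and the control group, and whether mitochondrially and nuclear-encoded subunits of the same complexes moved together.

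Complexes I, III and IV and the ATP synthase are built from subunits of both genomes, whereas all subunits of complex II are encoded in the nucleus. Mitochondrial DNA is transcribed from both strands as long polycistronic RNAs, and most of its mRNAs come from the heavy-strand transcript, with MT-ND6 alone on the light-strand transcript. Nuclear subunit genes are transcribed one by one, and NRF1, GABP, YY1 and the PGC-1 family of coactivators are textbook regulators of many of them.

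Libraries held 25347900 to 31850997 counts, so that the floor of 3 counts lay between 0.0955 and 0.119 CPM, the unit of counts per scaled library total, a limit that covers counting error only. SAPCD2 itself was at 83.6 and 82.2 CPM in sh-Scb and 35.4 and 52.5 CPM in sh-SAPCD2 libraries, or 42.7% and 63.3% of the control mean in the knockdown libraries (log2 fold change -0.91, SE 0.193, adjusted p = 0.0206). The adrenergic NB markers were all detected (10 of 10 tested, 1 higher and 3 lower), with a summed level of 6093 to 6236 CPM in sh-Scb and 8271 to 10237 CPM in sh-SAPCD2 libraries, where MYCN is the largest term. Of the markers of other cells, the 9 mesenchymal genes summed to 378 to 379 CPM in sh-Scb and 410 to 413 CPM in sh-SAPCD2 libraries. Their tested genes had a median of 8.44 CPM, beside 14.2 CPM over all tested genes, so the sum rests on a few of them. Sums were low for the 4 glial genes, at 2.40 to 3.73 CPM in sh-Scb and 4.90 to 7.13 CPM in sh-SAPCD2 libraries. For the 4 leukocyte genes they were 9.01 to 9.74 and 11.0 to 12.8 CPM. The marker genes PRRX1, SOX10, LYZ and CD3E were at 0 in all libraries. Among tested markers, 1 of 2 glial and 1 of 2 leukocyte genes were called higher, at log2 fold changes of 1.80 and 2.81. Of 7 tested mesenchymal genes, 1 was higher and 1 lower, where 12.4% of all tested genes were called higher and 12.5% lower. The part of other cells in the results was not tested. The labels do not say whether the libraries came from separate cultures, so p-values measure the spread between these libraries, which may be technical. With 2 libraries a group, the smallest two-sided exact permutation p for a single value is 0.333, and the tests across genes are edgeR quasi-likelihood tests, adjusted over the 18779 genes tested by the Benjamini-Hochberg method.

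The 13 mitochondrially encoded mRNAs took 8.30% (95% Wilson interval 8.29 to 8.31) and 8.65% (8.64 to 8.66) of all counts in the sh-Scb libraries. Their share was 7.68% (7.67 to 7.69) in the first and 6.18% (6.17 to 6.19) in the second sh-SAPCD2 library, with intervals for counting error only. Both knockdown libraries therefore lay below both control libraries, and the group means were 8.47% ± 0.252 and 6.93% ± 1.06 (SD, n = 2). The 89 nuclear members took a far smaller share, at 0.746% and 0.737% in sh-Scb, 0.674% in the first and 0.821% in the second sh-SAPCD2 library. For these the control libraries lay between the knockdown libraries. The ratio of mitochondrially to nuclear-encoded counts was 11.1 and 11.7 in sh-Scb, 11.4 in the first sh-SAPCD2 library and 7.53 in the second, so that only the second knockdown library stood apart. In RNA from bulk cells, a change in the share of cells of a kind and a change in RNA per cell cannot be told apart.

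**Figure D1:**
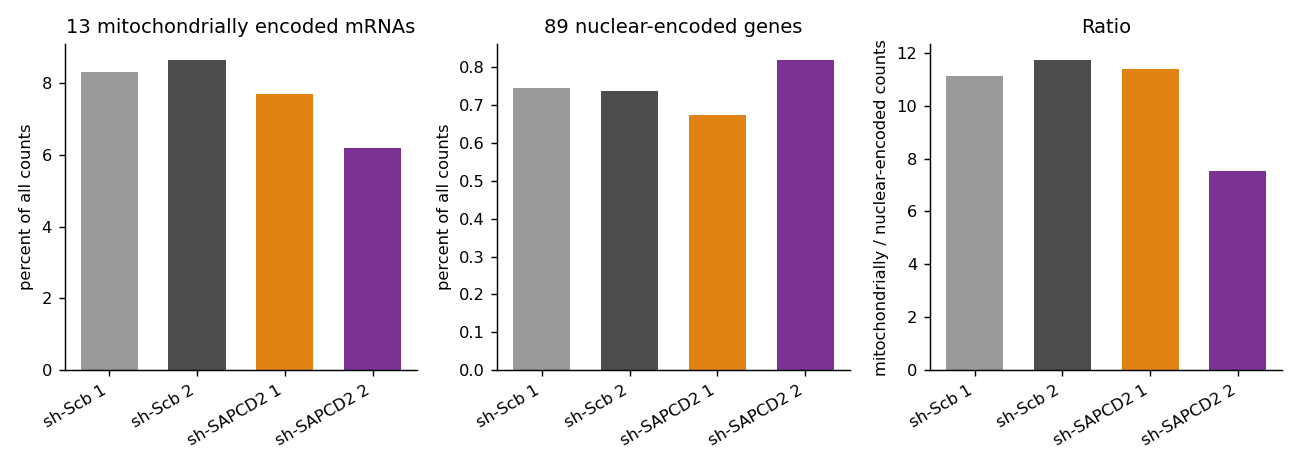
Bars give, for each library, the percent of all counts from the 13 mitochondrially encoded mRNAs (left), from the 89 nuclear-encoded genes (middle) and the ratio of these counts (right). The sh-SAPCD2 2 library has the lowest mitochondrial share (6.18%), the highest nuclear share (0.821%) and the lowest ratio (7.53).

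Among the mitochondrially encoded mRNAs, 3 were lower and 1 was higher in SAPCD2-knockdown cells at adjusted p under 0.05. The lower ones were MT-CO2 and MT-CO3, catalytic-core subunits of complex IV (cytochrome c oxidase), and MT-ATP6, the proton channel subunit of the ATP synthase. The higher one was MT-ND6, a membrane subunit of complex I. For comparison, 12.4% of all tested genes were called higher and 12.5% lower, and among protein-coding genes with a mean of at least 30 CPM 18.5% were higher and 16.3% lower. The median log2 fold change of the 13 mRNAs was -0.21, against 0.02 over all tested genes. Groups did not overlap for 9 of the 13 (1 higher and 8 lower), where 33.5% of all tested genes did not overlap with sh-SAPCD2 higher and 33.4% with sh-SAPCD2 lower.

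MT-CO2 was at 9520 and 10581 CPM in sh-Scb and at 7572 and 5830 CPM in sh-SAPCD2 libraries. Both knockdown libraries were below both controls, and the log2 fold change was -0.58 (SE 0.140, edgeR adjusted p = 0.0295). MT-CO3 was at 11495 and 12200 CPM in sh-Scb and at 9288 and 8050 CPM in sh-SAPCD2 libraries, again without overlap, with a log2 fold change of -0.45 (SE 0.0998, edgeR adjusted p = 0.0238). MT-CO1, which binds the haem and copper centre of the same core, was the most abundant member. Its 23025 and 24018 CPM in sh-Scb stood against 22524 and 18200 CPM in sh-SAPCD2 libraries, and the log2 fold change of -0.21 did not pass the test (SE 0.116, edgeR adjusted p = 0.235). Per kilobase of transcript the 3 core mRNAs had nearly equal levels in sh-Scb, with means of 15254 (MT-CO1), 14694 (MT-CO2) and 15112 (MT-CO3) CPM per kb. In sh-SAPCD2 cells these means were 13205, 9797 and 11058 CPM per kb. The 3 core mRNAs together made up 53.5% and 54.3% of the mitochondrial mRNA counts in sh-Scb and 51.2% in each sh-SAPCD2 library.

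MT-ATP6 was at 6323 and 6596 CPM in sh-Scb and at 4898 and 4523 CPM in sh-SAPCD2 libraries. The groups did not overlap, and the log2 fold change was -0.46 (SE 0.0876, edgeR adjusted p = 0.0157). MT-ATP8, the small second mitochondrial subunit of the ATP synthase, shares an mRNA with MT-ATP6. It was at 1341 and 1316 CPM in sh-Scb and at 1165 and 721 CPM in sh-SAPCD2 libraries, a log2 difference of -0.49 with a wider error (SE 0.214, edgeR adjusted p = 0.143), and the second knockdown library was far below the first. The reading frames of the pair overlap by 46 bases, so that reads there belong to both genes. The overlap lies on the plus strand at chrM:8527-8572 (GRCh38), printed here to show the shared stretch, with the start codon of MT-ATP6 in capitals.
MT-ATP8 and MT-ATP6 overlap: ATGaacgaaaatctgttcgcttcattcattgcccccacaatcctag

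MT-ND6, the mRNA of the light-strand transcript, went the other way. Its level was 816 and 836 CPM in sh-Scb and 1106 and 1129 CPM in sh-SAPCD2 libraries, and the log2 fold change was 0.44 (SE 0.0872, edgeR adjusted p = 0.0176). The knockdown libraries were close to each other and above both controls. MT-ND6 made up 0.991% and 0.969% of the mitochondrial mRNA counts in sh-Scb and 1.44% and 1.80% in sh-SAPCD2 libraries. Its gene lies at chrM:14149-14673, minus strand. The strand setting of the counting is not given in the sources used here, so reads of MT-ND6 and reads of RNA opposite to it cannot be told apart.

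The other complex I mRNAs of the mitochondrial genome encode membrane subunits of the proton-pumping arm, and none of these 6 passed the test. MT-ND1 was at 4172 and 4267 CPM in sh-Scb and at 4885 and 4044 CPM in sh-SAPCD2 libraries (log2 fold change 0.08, SE 0.112, edgeR adjusted p = 0.626). MT-ND5 was at 3009 and 3064 CPM in sh-Scb and at 3715 and 2873 CPM in sh-SAPCD2 libraries (0.12, SE 0.134, edgeR adjusted p = 0.553). For both genes the knockdown libraries lay on opposite sides of the controls. MT-ND2 had 5164 and 5296 CPM in sh-Scb against 5203 and 4242 CPM in sh-SAPCD2 libraries (-0.15, edgeR adjusted p = 0.391). MT-ND3 had 1330 and 1350 CPM against 1332 and 1291 CPM (-0.03, edgeR adjusted p = 0.818), the smallest difference of the 13. MT-ND4L and MT-ND4 share an mRNA, and their reading frames overlap by 7 bases at chrM:10760-10766. MT-ND4L was at 2819 and 2950 CPM in sh-Scb and at 2635 and 1490 CPM in sh-SAPCD2 libraries (-0.48, SE 0.248, edgeR adjusted p = 0.202). MT-ND4 was at 10594 and 10937 CPM in sh-Scb and at 9901 and 8025 CPM in sh-SAPCD2 libraries (-0.26, SE 0.116, edgeR adjusted p = 0.147). In both, the second knockdown library was the lowest and the groups did not overlap. MT-CYB, the mitochondrial subunit of complex III (cytochrome bc1 complex), was at 2744 and 2848 CPM in sh-Scb and at 2672 and 2232 CPM in sh-SAPCD2 libraries (-0.19, SE 0.112, edgeR adjusted p = 0.258).

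**Figure D2:**
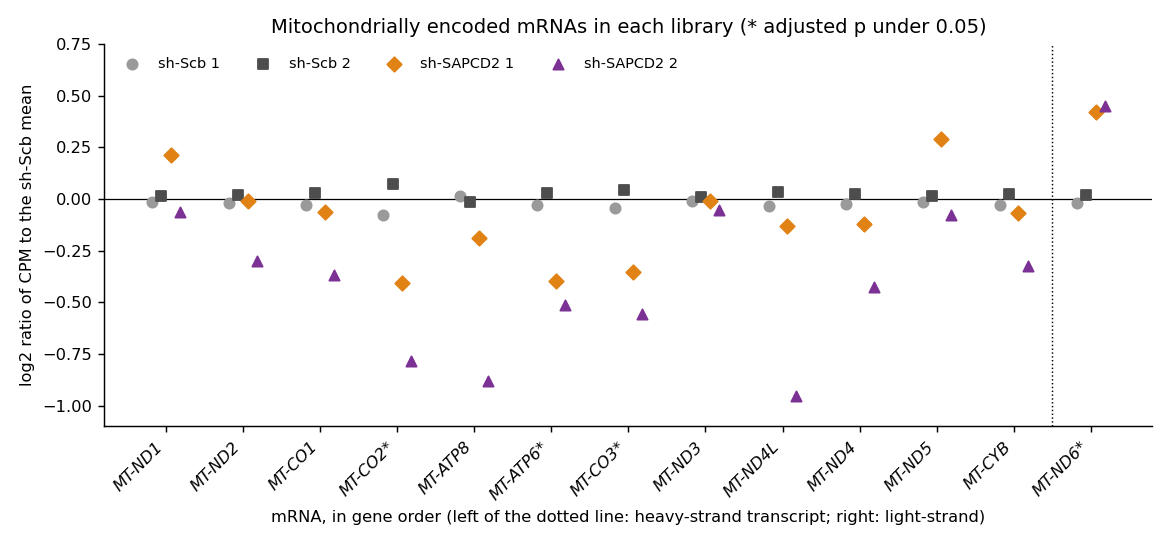
Points give the log2 ratio of CPM to the sh-Scb mean for each mitochondrially encoded mRNA (x axis, in gene order) in the 4 libraries. The sh-SAPCD2 2 library (triangles) is below both controls for all 12 heavy-strand mRNAs and sh-SAPCD2 1 (diamonds) for 8, while both are above them for MT-ND6. Of 18779 tested genes, 8201 are below both controls in sh-SAPCD2 2 and 8184 in sh-SAPCD2 1.

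Across the 12 mRNAs of the heavy-strand transcript, 3 were lower and 0 were higher by edgeR at adjusted p under 0.05, which are also the counts at an unadjusted p under 0.05. The first sh-SAPCD2 library was below both controls for 8 of the 12 and the second for 12 of the 12. The median log2 ratio to the control mean was -0.09 in the first and -0.40 in the second, so the size of the shift differed between the knockdown libraries. The other mitochondrial genes encode the rRNAs and tRNAs. Of 8 tested tRNA genes on the light-strand transcript, 4 were higher (MT-TA, MT-TN, MT-TC and MT-TE, with log2 fold changes of 0.36, 0.37, 0.36 and 0.51) and 0 were lower. As for MT-ND6, reads of RNA opposite to these genes cannot be told apart from their own. Over all tested genes, 12.4% were called higher and 12.5% lower. Of 16 tested rRNA and tRNA genes on the heavy-strand transcript, none was called in either direction by edgeR. Medians over the 8 and the 16 genes were 0.33 and 0.17 on the log2 scale. The 16 had a median level of 5.80 CPM, so their median rests mostly on low-level tRNA genes. The far more abundant rRNAs had negative differences that did not pass the test. These were -0.43 for MT-RNR1 (edgeR adjusted p = 0.179) and -0.12 for MT-RNR2 (edgeR adjusted p = 0.544), with sh-Scb means of 1103 and 11178 CPM.

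Nuclear copies of mitochondrial DNA bear on how these mRNAs were counted, since a read that matches both can be assigned to either. MTATP6P1, a copy of MT-ATP6 on chromosome 1, held 1011 and 1087 CPM in sh-Scb and 793 and 606 CPM in sh-SAPCD2 libraries, and its log2 fold change of -0.58 (SE 0.144, edgeR adjusted p = 0.0320) resembled that of MT-ATP6. The copy is identical to MT-ATP6 at 98.5% of aligned bases. MTND2P28 was 98.2% identical to MT-ND2 (log2 fold change -0.18), and MTCO1P12 was 98.6% identical to MT-CO1 (0.08), and neither passed the test. All copies together took 0.214% and 0.226% of counts in sh-Scb and 0.189% and 0.162% in sh-SAPCD2 libraries. The first 120 bases of MT-ATP6 and of its copy are printed to show how little separates them, with the 1 differing base in capitals (GRCh38, plus strands, chrM:8527-8646 and chr1:633696-633815).
MT-ATP6: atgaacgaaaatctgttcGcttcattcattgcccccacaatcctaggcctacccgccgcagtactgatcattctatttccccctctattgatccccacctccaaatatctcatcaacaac
MTATP6P1: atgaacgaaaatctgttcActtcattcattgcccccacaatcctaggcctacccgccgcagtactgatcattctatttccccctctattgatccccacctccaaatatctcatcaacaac

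Of the 89 nuclear members, 80 had enough counts to be tested. In SAPCD2-knockdown cells 2 of these were higher and 5 were lower, or 8.75% of the 80, against 24.8% of all tested genes and 34.7% of the protein-coding genes with at least 30 CPM. The higher ones were UQCRFS1 of complex III and NDUFA4L2, a paralogue of the complex IV subunit NDUFA4. The lower ones were NDUFA10, NDUFA9 and NDUFC1 of complex I, COX7B of complex IV and ATP5PO of the ATP synthase. Under the study's own threshold for differentially expressed genes (DEGs), which adds an absolute log2 fold change over 1, NDUFA4L2 was the only member, where 4.69% of all tested genes were higher and 5.15% lower. The median log2 fold change of the 80 was 0.11, with quartiles of -0.10 and 0.24, against a median of 0.05 for the protein-coding genes with at least 30 CPM. Groups did not overlap for 20 of the 80 members with sh-SAPCD2 higher and for 20 of the 80 with sh-SAPCD2 lower. Both shares were smaller than those of all tested genes (33.5% and 33.4%). They were also smaller than those of the protein-coding genes with at least 30 CPM (40.8% and 34.1%). At an unadjusted p under 0.05, 4 of the members were higher and 8 lower, beside 3752 and 3645 of the 18779 tested genes. DESeq2, run as the other count test, called the same 11 members of both genomes in the same directions, and in addition MT-ATP8 lower (adjusted p = 0.0422) and NDUFA1 (adjusted p = 0.0277) and NDUFB8 (adjusted p = 0.0358) higher. It called no further nuclear member of complexes II to V and no core subunit of complex I.

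**Figure D3:**
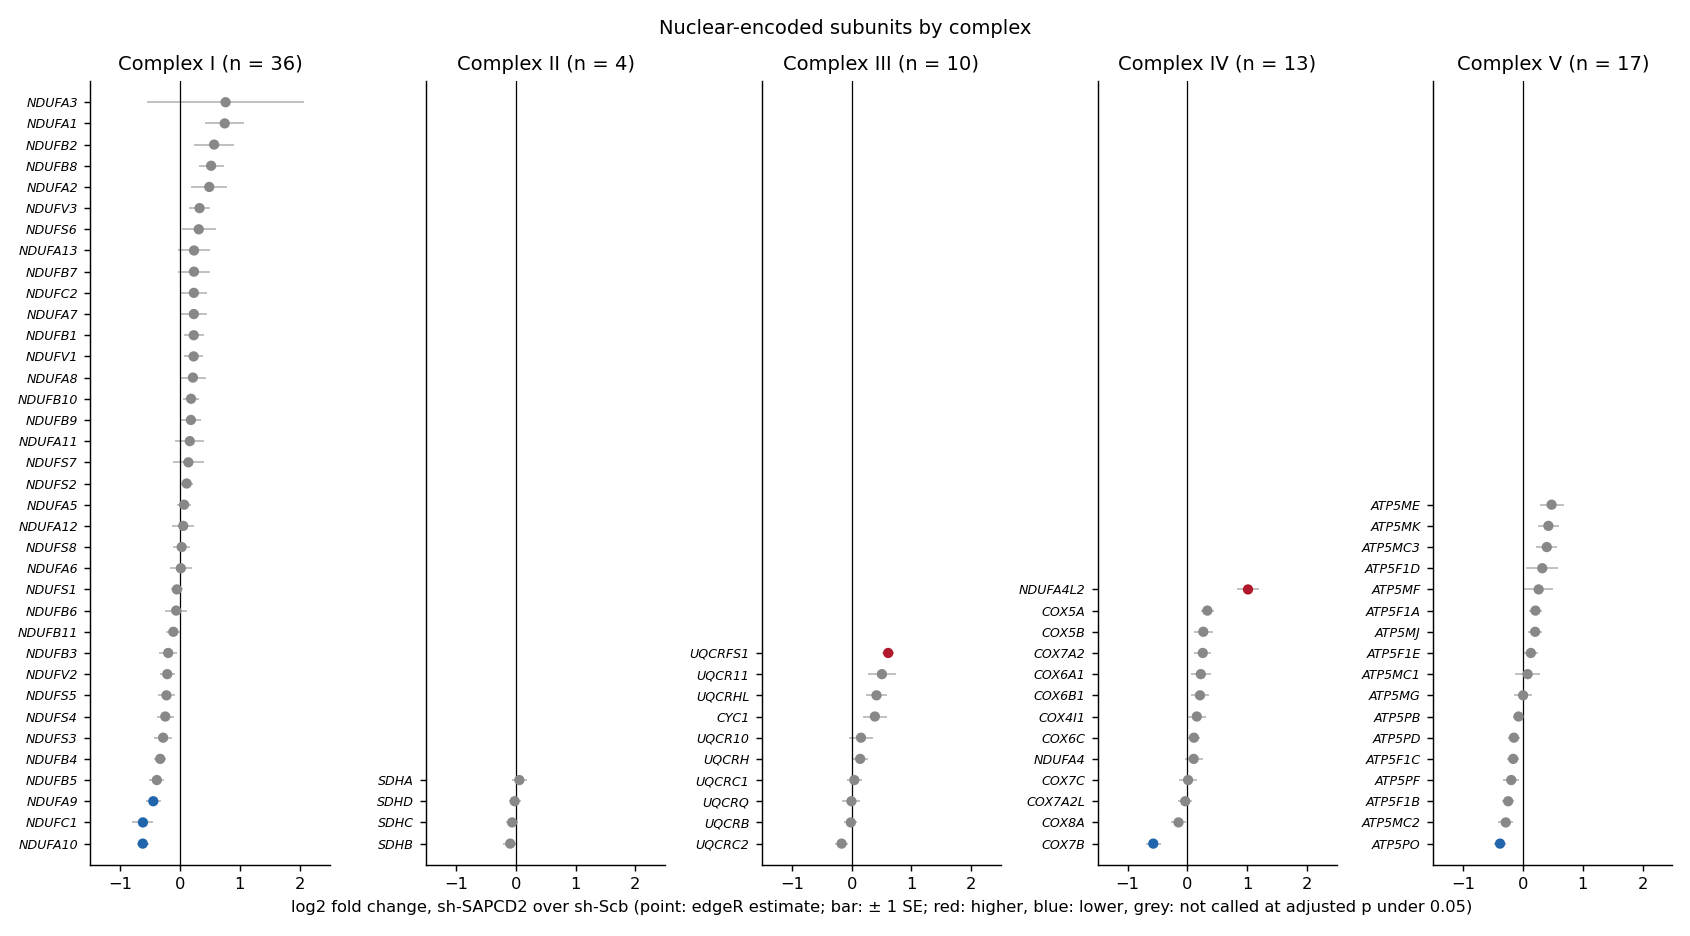
Points give the log2 fold change of each tested nuclear-encoded subunit, sh-SAPCD2 over sh-Scb, with bars of 1 SE, in a panel for each complex (36, 4, 10, 13 and 17 genes). Red points (UQCRFS1, NDUFA4L2) were called higher and blue points (NDUFA10, NDUFA9, NDUFC1, COX7B, ATP5PO) lower, and grey points did not pass the test.

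Complex I (NADH dehydrogenase) had 36 tested nuclear subunits, of which 0 were called higher and 3 lower by edgeR. The calls were 8.33% of the 36, against 24.8% of all tested genes. At an unadjusted p under 0.05 there were 1 higher and 5 lower (2.78% and 13.9%), beside 3752 and 3645 of the 18779 tested genes. Both shares were smaller than those of all tested genes. The median log2 fold change was 0.12. NDUFA10, an accessory subunit of the membrane arm, was at 109 and 106 CPM in sh-Scb and at 67.99 and 71.74 CPM in sh-SAPCD2 libraries. The knockdown libraries were close to each other and did not overlap the controls, with a log2 fold change of -0.62 (SE 0.102, edgeR adjusted p = 0.0101). NDUFA9, an accessory subunit at the joint of the arms, was at 53.9 and 52.7 CPM in sh-Scb and at 36.7 and 41.4 CPM in sh-SAPCD2 libraries, a log2 fold change of -0.45 (SE 0.123, edgeR adjusted p = 0.0437). Exons of NDUFA9 overlap those of other protein-coding genes on the same strand, so its reads may be shared with them. NDUFC1, a small membrane-arm subunit, was at 21.1 and 23.4 CPM in sh-Scb and at 12.6 and 16.3 CPM in sh-SAPCD2 libraries, a log2 fold change of -0.62 (SE 0.176, edgeR adjusted p = 0.0479). Exons of NDUFC1 overlap those of the neighbouring MGARP and NAA15, so its reads may be shared with them. NDUFB4 (-0.33, edgeR adjusted p = 0.0569) and NDUFB5 (-0.39, edgeR adjusted p = 0.0657) lay just beyond the threshold, with both knockdown libraries below both controls.

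The 7 nuclear core subunits of complex I, which carry the flavin and the iron-sulphur clusters, gave no call by edgeR in either direction, and none had an unadjusted p under 0.05. With counts corrected for GC content and transcript length, 3 of the 7 (NDUFS3, NDUFS7 and NDUFS8) were called lower, as were 20.2% of all tested genes. Before this correction NDUFS7 and NDUFS8 had log2 fold changes of 0.14 and 0.03. The median log2 fold change of the 7 without the correction was 0.03. NDUFS1, the largest of them, was at 161 and 165 CPM in sh-Scb and at 161 and 152 CPM in sh-SAPCD2 libraries. NDUFV1, which binds NADH, was at 181 and 178 CPM in sh-Scb and at 175 and 244 CPM in sh-SAPCD2 libraries, so the knockdown libraries again lay on opposite sides of the controls. NDUFA3 could not be read with any precision, since it held 4 and 54 counts in the sh-Scb and 4 and 105 counts in the sh-SAPCD2 libraries.

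Complex II (succinate dehydrogenase), which has no mitochondrially encoded subunit, gave no call in either direction by edgeR, and none of its 4 genes had an unadjusted p under 0.05. Their log2 fold changes lay between -0.09 (SDHB) and 0.06 (SDHA). SDHD, a membrane anchor of the complex, was at 78.6 and 80.4 CPM in sh-Scb and at 78.2 and 78.6 CPM in sh-SAPCD2 libraries. SDHA, the flavoprotein, has pseudogenes that held 33.6% as many counts as the gene itself, so its level is uncertain.

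Complex III had 10 tested nuclear members, with 1 higher, 0 lower and a median log2 fold change of 0.15. The 1 call among the 10 was a smaller share than the 24.8% called over all tested genes (12.4% higher and 12.5% lower). UQCRFS1, the Rieske iron-sulphur protein that passes electrons on to cytochrome c1, was at 82.4 and 76.4 CPM in sh-Scb and at 122 and 120 CPM in sh-SAPCD2 libraries. The knockdown libraries were close to each other and above the controls, with a log2 fold change of 0.61 (SE 0.103, edgeR adjusted p = 0.0108). Pseudogenes of UQCRFS1 held 4.91% as many counts as the gene. The other catalytic subunit of the nucleus, cytochrome c1 (CYC1), was at 104 and 103 CPM in sh-Scb and at 107 and 164 CPM in sh-SAPCD2 libraries. Its difference of 0.39 did not pass the test (SE 0.199, edgeR adjusted p = 0.201), and it came mostly from the second knockdown library.

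Complex IV had 13 tested members of 19, with 1 higher, 1 lower and a median log2 fold change of 0.16. The calls were 15.4% of the 13, against 24.8% of all tested genes. COX7B, a small subunit needed for assembly of the complex, was at 114 and 121 CPM in sh-Scb and at 86.0 and 72.5 CPM in sh-SAPCD2 libraries. The groups did not overlap, and the log2 fold change was -0.57 (SE 0.123, edgeR adjusted p = 0.0220). NDUFA4L2, a hypoxia-inducible paralogue of NDUFA4, was at 4.52 and 4.76 CPM in sh-Scb and at 9.88 and 8.92 CPM in sh-SAPCD2 libraries. This low-level gene had the largest log2 fold change among the members, 1.02 (SE 0.183, edgeR adjusted p = 0.0130), and its exons overlap SHMT2 on the opposite strand. NDUFA4 itself was at 124 and 114 CPM in sh-Scb and at 111 and 146 CPM in sh-SAPCD2 libraries (0.11, edgeR adjusted p = 0.635). COX5A, which lay just beyond the threshold, was at 99.8 and 98.2 CPM in sh-Scb and at 116 and 134 CPM in sh-SAPCD2 libraries (0.34, SE 0.112, edgeR adjusted p = 0.0764).

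The tissue-restricted isoforms of complex IV were at or near the floor. COX6A2 and COX7A1, the heart and muscle isoforms, and COX7B2 had 0 counts in all 4 libraries, which allows no more than 3 counts in each. COX4I2, an isoform of lung, had 8 and 13 counts in the sh-Scb and 0 and 7 counts in the sh-SAPCD2 libraries, whereas the ubiquitous COX4I1 was at 234 and 226 CPM in sh-Scb and at 222 and 292 CPM in sh-SAPCD2 libraries. COX8C had 7 and 8 counts against 3 and 5, and COX6B2 had 0 and 0 against 3 and 0. The remaining untested members were the read-through genes NDUFC2-KCTD14 (0 counts) and ATP5MF-PTCD1 (0, 0, 4 and 13 counts) and the ATP synthase gene copy ATP5MGL (1, 3, 0 and 0 counts).

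The ATP synthase (complex V) had 17 tested nuclear members, with 0 higher, 1 lower and a median log2 fold change of 0.08. The call was 5.88% of the 17, against 24.8% of all tested genes. By edgeR at an unadjusted p under 0.05 there were 0 higher and 2 lower, beside 3752 and 3645 of the 18779 tested genes. The 2 lower were 11.8% of the 17, also a smaller share than that of all tested genes. ATP5PO, which ties the peripheral stalk to the head of the enzyme (the OSCP subunit), was at 79.8 and 82.4 CPM in sh-Scb and at 62.2 and 62.1 CPM in sh-SAPCD2 libraries. The log2 fold change was -0.38 (SE 0.104, edgeR adjusted p = 0.0416), and its exons overlap a read-through gene and LINC00649. The 4 peripheral stalk subunits (ATP5PO, ATP5PF, ATP5PD and ATP5PB) had both knockdown libraries below both controls, with log2 differences of -0.38, -0.20, -0.15 and -0.07, and ATP5PO alone passed the test. Of all tested genes, 33.4% had groups apart in this direction. ATP5F1B, the catalytic beta subunit and the most abundant nuclear member, was at 775 and 782 CPM in sh-Scb and at 621 and 690 CPM in sh-SAPCD2 libraries (-0.25, SE 0.0974, edgeR adjusted p = 0.113). Its partner in the head, ATP5F1A, was at 264 and 265 CPM in sh-Scb and at 287 and 323 CPM in sh-SAPCD2 libraries (0.21, SE 0.102, edgeR adjusted p = 0.187).

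The sh-SAPCD2 libraries differed from each other in their nuclear members. Of the 80 tested, 53 were below both controls in the first library, whereas 53 were above both controls in the second (66.3% each, against 43.6% and 44.8% of all tested genes). In all, 68 of the 80 (85.0%) were higher in the second than in the first, as were 50.5% of all tested genes, 79 of 86 cytosolic ribosomal protein genes and 264 of 298 protein-coding genes with at least 30 CPM and a transcript under 1000 bases. For the 80 members the median log2 ratio to the control mean was -0.11 in the first and 0.27 in the second. The mitochondrially encoded mRNAs split the other way, with 1 of 13 higher in the second library. Genes whose knockdown libraries lay close together, such as NDUFA10, UQCRFS1 and ATP5PO, thus stood beside genes such as NDUFB2 (43.4 and 39.8 CPM in sh-Scb, 38.7 and 84.4 CPM in sh-SAPCD2 libraries) in which the second library alone was high. Members with a higher GC content tended to have a larger gap between the knockdown libraries. Over the 80 nuclear members, the gap had a Pearson r of 0.35 and a Spearman rho of 0.46 with the GC content of the transcript, and over 6505 protein-coding genes with at least 30 CPM r and rho were both 0.77. With the log2 length of the transcript, rho was -0.41 over the 80 members and r and rho were both -0.50 over the 6505 genes. The 47 nuclear members with transcripts under 1000 bases were at a median log2 difference of 0.18 and the 33 longer ones at 0.0016, beside 0.24 for the 298 short genes with at least 30 CPM. These points share the same 2 libraries, and for the gap between the sh-Scb libraries r was -0.10 over 6504 such genes. The part of GC content and length in the differences between groups was not tested.

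**Figure D4:**
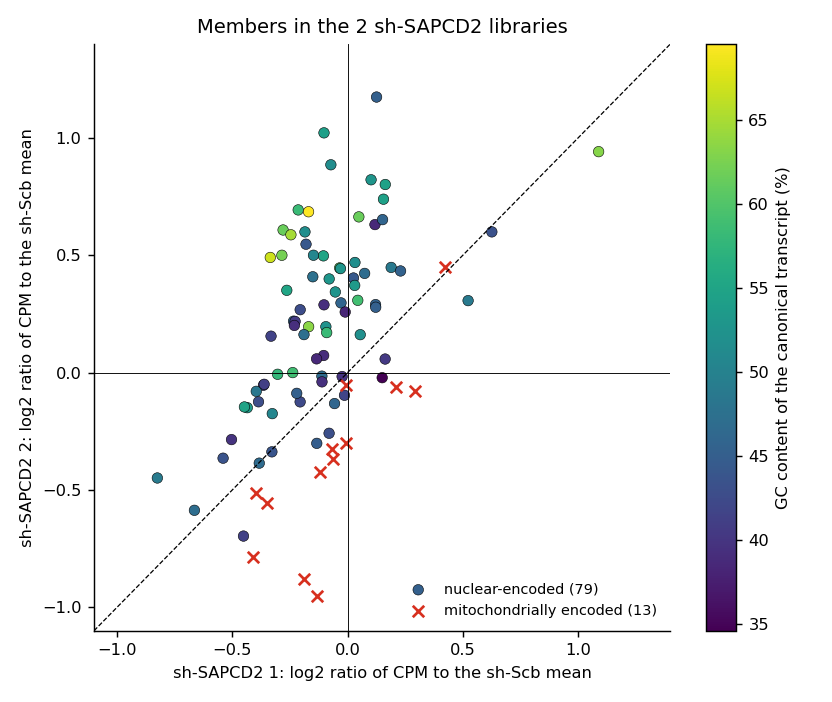
Each circle is 1 of 79 nuclear-encoded members (NDUFA3, with very few counts, is not drawn) and each cross 1 of the 13 mitochondrially encoded mRNAs, placed by its log2 ratio to the sh-Scb mean in the first (x) and the second (y) sh-SAPCD2 library and coloured by GC content. Most circles lie above the dashed line of equality and 12 of 13 crosses below it.

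The counts of nuclear members called changed with these libraries. Without the first sh-SAPCD2 library, 42 were higher and 12 lower, with 45.9% of all tested genes called. Without the second, 4 were higher and 25 lower, with 38.0% of all genes called, and the median log2 fold change of the nuclear members was -0.11 rather than 0.11. In these fits the lone library is assumed to vary as the sh-Scb libraries do. Without the first sh-Scb library the median log2 fold change of the nuclear members was 0.14, and without the second it was 0.10. There the lone sh-Scb library is assumed to vary as the sh-SAPCD2 libraries do. Fewer members passed the test without either sh-Scb library, and so did fewer of all tested genes. The median of the mitochondrially encoded mRNAs was -0.39 without the first and -0.066 without the second sh-SAPCD2 library. It was -0.24 and -0.18 without the first and the second sh-Scb library.

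With the counts corrected for GC content and transcript length within each library, the median log2 ratio of the nuclear members to the control mean was -0.09 in the first and 0.15 in the second sh-SAPCD2 library, and 64 of 80 were still higher in the second. Under this correction 5 nuclear members were higher and 15 lower (6.25% and 18.8%), beside 20.1% and 20.2% of all tested genes. UQCRFS1 stayed higher (log2 fold change 0.72), and NDUFA10 (-0.57), NDUFC1 (-0.68), COX7B (-0.45) and ATP5PO (-0.39) stayed lower. NDUFA4L2 (0.71, edgeR adjusted p = 0.0668) and NDUFA9 (-0.38, edgeR adjusted p = 0.0509) no longer passed the test. The calls gained were COX5A, NDUFB8, ATP5MK and ATP5MJ, higher, and ATP5MC2, COX8A, NDUFB4, ATP5F1B, NDUFS7, NDUFS3, NDUFB11, NDUFS5, NDUFS8, ATP5F1D and NDUFB7, lower. Of these, NDUFS7 (0.14 before and -0.38 after the correction), NDUFS8 (0.03 and -0.35), NDUFB7 (0.23 and -0.24) and ATP5F1D (0.32 and -0.26) changed sign. The 4 mitochondrially encoded calls were unchanged in direction, at 0.46 for MT-ND6, -0.44 for MT-ATP6, -0.45 for MT-CO3 and -0.58 for MT-CO2, each past the threshold.

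Promoter sequences were taken from RefSeq (GRCh38.p14) as the 250 bases before and 50 bases after the start, and 64 of the 80 tested nuclear members had an entry. Exact matches on both strands were searched for an NRF1 motif (GCATGCGC and GCGCATGC), a GABP motif (CCGGAAG), a YY1 motif (AAGATGGC) and an E2F motif (TTTCCCGC and TTTGGCGC), E2F being the family on which the study centres. The NRF1 letters were in 20.3% of the 64 promoters, in 3.27% of all 27305 RefSeq promoters and in 5.37% of those of 10997 tested protein-coding genes. The GABP letters were in 31.3%, 10.7% and 18.6%, the YY1 letters in 17.2%, 3.03% and 5.17%, and the E2F letters in 7.81%, 2.31% and 3.59% of these promoters. Of the 7 called nuclear members, 6 had an entry. NDUFA9 and ATP5PO held the YY1 letters, NDUFC1 and COX7B the E2F letters, and NDUFA10 and UQCRFS1 none of these. The YY1 letters were in 11 of the 64 promoters and the E2F letters in 5, mostly of members that were not called. Whether a match goes with a change was not tested. The promoters of the 4 called members with a match, all called lower, are printed with the matched letters in capitals. They are at chr12:4648864-4649163 (NDUFA9, plus strand), chr21:33915755-33916054 (ATP5PO, minus strand), chr4:139302502-139302801 (NDUFC1, minus strand) and chrX:77899218-77899517 (COX7B, plus strand).
NDUFA9: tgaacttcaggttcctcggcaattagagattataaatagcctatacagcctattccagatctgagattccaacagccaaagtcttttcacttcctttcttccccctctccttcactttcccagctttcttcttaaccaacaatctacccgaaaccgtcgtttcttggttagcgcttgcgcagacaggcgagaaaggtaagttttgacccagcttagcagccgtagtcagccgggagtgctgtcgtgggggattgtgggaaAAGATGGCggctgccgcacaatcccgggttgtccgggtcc
ATP5PO: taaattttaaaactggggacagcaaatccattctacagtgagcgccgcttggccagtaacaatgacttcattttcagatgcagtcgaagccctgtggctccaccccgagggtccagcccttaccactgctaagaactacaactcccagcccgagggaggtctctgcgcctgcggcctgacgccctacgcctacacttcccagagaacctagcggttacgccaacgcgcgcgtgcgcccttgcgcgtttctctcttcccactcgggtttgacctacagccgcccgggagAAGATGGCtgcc
NDUFC1: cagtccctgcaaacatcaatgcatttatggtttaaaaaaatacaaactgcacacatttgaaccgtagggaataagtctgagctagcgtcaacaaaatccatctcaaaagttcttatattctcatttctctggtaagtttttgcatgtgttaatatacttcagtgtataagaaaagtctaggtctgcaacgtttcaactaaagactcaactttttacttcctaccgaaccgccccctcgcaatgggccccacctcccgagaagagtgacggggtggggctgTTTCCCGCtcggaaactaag
COX7B: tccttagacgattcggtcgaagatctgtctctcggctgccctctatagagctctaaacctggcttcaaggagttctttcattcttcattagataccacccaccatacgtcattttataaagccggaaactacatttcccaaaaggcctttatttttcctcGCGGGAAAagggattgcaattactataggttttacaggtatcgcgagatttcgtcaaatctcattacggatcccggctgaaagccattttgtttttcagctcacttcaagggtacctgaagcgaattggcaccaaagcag

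Among the nuclear regulators of these genes, 14 of 15 were tested, with 2 higher, 1 lower and a median log2 fold change of 0.11. The calls were 21.4% of the 14, against 24.8% of all tested genes. ESRRA, a nuclear receptor that acts with the PGC-1 coactivators on subunit genes, rose from 35.4 and 35.9 CPM in sh-Scb to 76.8 and 129 CPM in sh-SAPCD2 libraries (1.53, SE 0.242, edgeR adjusted p = 0.00917). MYCN, the amplified oncogene of this line, rose from 3235 and 3178 CPM to 5904 and 7091 CPM (1.02, SE 0.111, edgeR adjusted p = 0.00378). GABPB2, a partner of GABP, fell from 19.1 and 18.0 CPM to 9.72 and 8.15 CPM (-1.06, SE 0.164, edgeR adjusted p = 0.00866). NRF1 (-0.22, edgeR adjusted p = 0.260), GABPA (-0.38, edgeR adjusted p = 0.154), PPRC1 (0.26, edgeR adjusted p = 0.0897) and PPARGC1B (0.33, edgeR adjusted p = 0.152) did not pass the test. PPARGC1A, which encodes PGC-1 alpha, was at 1.67 to 2.01 CPM in all libraries.

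Of 22 tested genes for mitochondrial transcription and DNA maintenance, 4 were higher and 4 lower, with a median log2 fold change of -0.09. The calls were 36.4% of the 22, against 24.8% of all tested genes and 34.7% of the protein-coding genes with at least 30 CPM. TFB1M, an rRNA methyltransferase of the mitochondrial ribosome, rose from 11.98 and 11.92 CPM in sh-Scb to 22.8 and 22.9 CPM in sh-SAPCD2 libraries (0.93, edgeR adjusted p = 0.00733), and TOP1MT, the mitochondrial topoisomerase, from 44.02 and 42.30 to 74.31 and 95.84 CPM (0.98, edgeR adjusted p = 0.00834). TFB2M, which opens the mitochondrial promoters, rose by a log2 value of 0.57 (edgeR adjusted p = 0.0447), and POLG, the mitochondrial DNA polymerase, by 0.55 (edgeR adjusted p = 0.0297). DNA2, a nuclease and helicase of nuclear and mitochondrial DNA, fell from 68.8 and 72.8 to 35.8 and 25.9 CPM (-1.20, edgeR adjusted p = 0.00723), and the nuclease MGME1 from 67.4 and 71.1 to 41.1 and 36.1 CPM (-0.84, edgeR adjusted p = 0.00730). PRIMPOL and the kinase TK2 were also lower. TFAM, the packaging and initiation factor of mitochondrial DNA (0.07, edgeR adjusted p = 0.713), and POLRMT, its RNA polymerase (0.15, edgeR adjusted p = 0.691), did not pass the test.

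Of 25 tested genes for mitochondrial RNA processing and stability, 6 were higher and 1 lower, with a median of 0.09. The calls were 28.0% of the 25, against 24.8% of all tested genes. TRUB2, a pseudouridine synthase, rose from 34.8 and 35.6 CPM in sh-Scb to 54.0 and 59.9 CPM in sh-SAPCD2 libraries (0.70, edgeR adjusted p = 0.0118). REXO2, RPUSD4, FASTKD5, FASTK and GRSF1 were the other higher genes, with log2 fold changes from 0.37 to 0.63. PTCD2, a pentatricopeptide repeat protein, fell from 14.2 and 13.8 to 6.87 and 6.46 CPM (-1.07, edgeR adjusted p = 0.00765). LRPPRC and SLIRP, which together hold mitochondrial mRNAs stable, had differences of 0.13 (edgeR adjusted p = 0.391) and -0.31 (edgeR adjusted p = 0.234). FASTK is known for its part in keeping MT-ND6 mRNA.

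Assembly factors build the complexes without staying in them. Of 25 complex IV factors, 4 were higher (COX10, PET117, COA8 and COA6) and 2 lower (HIGD1A and COA4), with a median of 0.21. The calls were 24.0% of the 25, against 24.8% of all tested genes. COX10, which makes haem O for MT-CO1, rose from 12.5 and 11.8 CPM in sh-Scb to 24.1 and 23.4 CPM in sh-SAPCD2 libraries (0.97, edgeR adjusted p = 0.00691). HIGD1A fell from 65.7 and 63.7 to 42.2 and 38.5 CPM (-0.68, edgeR adjusted p = 0.0112). Of 18 complex I factors, DMAC1 (0.93) and NDUFAF7 (0.59) were higher and COA1 (-0.40) lower (16.7% called), with a median of 0.03. SDHAF2 (0.53) was the 1 call among 4 factors of complex II, TTC19 (0.49) the 1 among 9 of complex III and DMAC2L (-0.64) the 1 among 7 of the ATP synthase. The mobile electron carriers and shared subunits gave 0 calls among 6 by edgeR, with 2 higher and 0 lower at an unadjusted p under 0.05 and a median of 0.27.

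**Figure D5:**
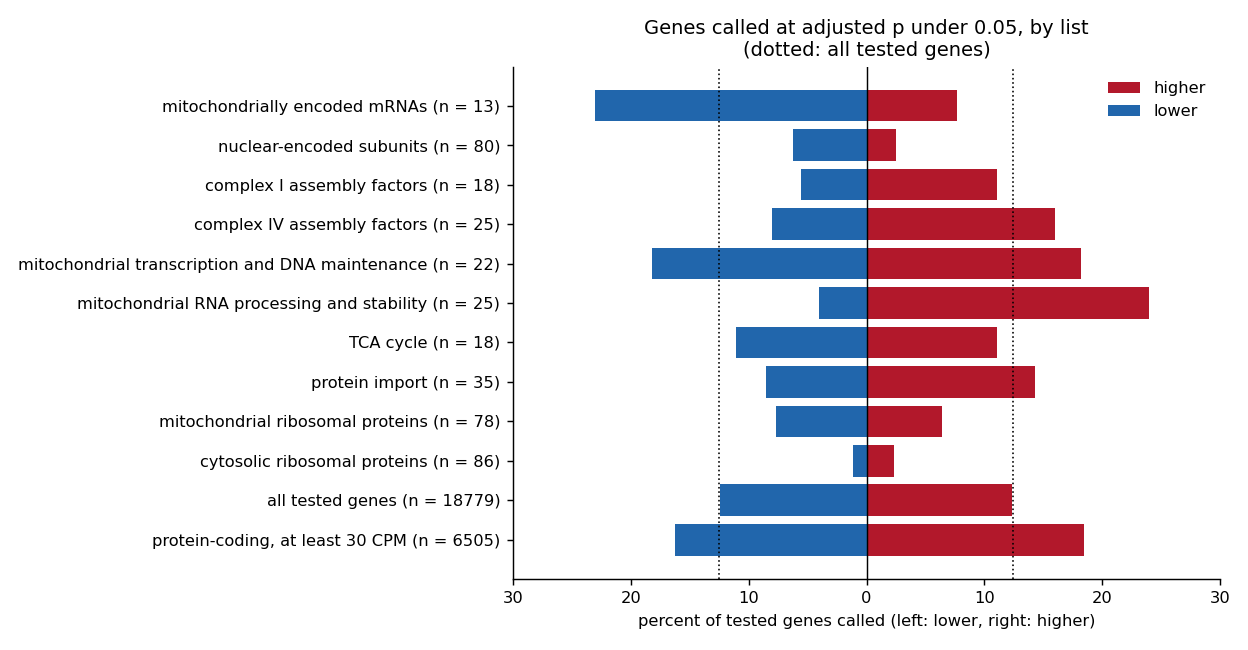
Bars give the percent of tested genes called lower (left, blue) and higher (right, red) in sh-SAPCD2 cells at adjusted p under 0.05, for the mitochondrially and nuclear-encoded members, for 8 lists of related genes and for 2 backgrounds, with dotted lines at the values of all tested genes (12.4% and 12.5%). The 80 nuclear-encoded subunits lie inside both dotted lines.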

How the data were processed

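RNA-seq of 4 SK-N-BE(2) libraries was analysed (TruSeq RNA kit, Illumina NovaSeq). The authors aligned the reads to hg38 with HISAT2 2.2.0, quantified genes with StringTie, and deposited raw gene counts. The counting step, its strand setting, the treatment of reads with several matches and the Ensembl release are not given in the sources used here, and a different choice could move counts between overlapping genes, pseudogenes and mitochondrial copies. Of 64252 gene identifiers, 56105 matched GENCODE 44.

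Genes passing filterByExpr (minimum count 10, total 15) were scaled by TMM and tested with edgeR 4.0.16 (quasi-likelihood, R 4.3.3), with Benjamini-Hochberg adjustment over 18779 genes and a threshold of 0.05. The SE was the absolute log2 fold change over the square root of F. Levels are CPM on TMM-scaled totals, and levels per kb use the canonical transcript. The members and the comparison lists were chosen with earlier results of these data known. Full values were given for all mitochondrially encoded mRNAs, for called members (up to 3 per complex and direction) and for the called genes with the smallest p in each list. Genes just beyond the threshold and those used as contrasts were chosen after their values were seen. Alternatives were DESeq2 1.42.0, other scalings and filters, a loess correction for GC content and length (span 0.3), a replicate block and leaving out each library.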

Additional observations from a re-analysis of the deposited data

How the results depend on the processing

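Counts below are members called at adjusted p under 0.05, where the reported counts were 1 higher and 3 lower among mitochondrially encoded and 2 higher and 5 lower among nuclear members, with 63 calls in the comparison lists. DESeq2 called 1 higher and 4 lower mitochondrially encoded and 4 higher and 5 lower nuclear members. It called 26.2% of all tested genes, against 24.8% with the reported settings. With no filter on low counts, 1 mitochondrially encoded member was lower, 1 nuclear member was lower and 30 list genes were called, over 34935 genes. Of these 34935, 6.47% were called. With the correction for GC content and length, 5 nuclear members were higher and 15 lower, with 147 list calls and 40.3% of all tested genes called. The labels do not say whether same-numbered libraries of the groups are paired. Deviations of same-numbered libraries had an r of -0.02, which with 2 libraries a group cannot decide this. The replicate block gave 5 lower mitochondrially encoded members and 5 higher and 3 lower nuclear members, with 29.6% of all tested genes called. The block with the GC and length correction gave 5, 11 and 15, with 156 list calls and 39.5% of all tested genes called. With an absolute log2 fold change over 1 as well, the counts were 0 and 0 for mitochondrially encoded and 1 and 0 for nuclear members, and at an unadjusted p under 0.05 nuclear members numbered 4 and 8. Leaving out each library in turn gave 0 to 3 higher and 0 to 9 lower mitochondrially encoded members, 0 to 42 higher and 0 to 25 lower nuclear members, and 26 to 239 list calls. In the same fits the median of the mitochondrially encoded members ranged from -0.39 to -0.066, that of the nuclear members from -0.11 to 0.26, and their difference from -0.64 to 0.046. With all libraries the difference, mitochondrially encoded minus nuclear, was -0.32. With the correction for GC content and length it was -0.21, and the nuclear median was 0.05. Without sh-SAPCD2 replicate 2 the nuclear median (-0.11) and the difference (0.046) turned in sign. Without sh-SAPCD2 replicate 1, MT-ND1 (-0.078, range -0.078 to 0.21) and MT-ND5 (-0.096, range -0.096 to 0.29) did. The log2 ratio of the mitochondrial mRNA share, -0.29, ranged from -0.46 to -0.14. The cause of these changes was not tested, apart from the loss of a library. Library totals, DESeq2 size factors and leaving mitochondrial genes out of the scaling shifted all log2 fold changes by at most 0.02 and left the member counts as they were.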

Other observations

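Other genes of the mitochondrion passed the test in either direction. Among 78 mitochondrial ribosomal protein genes, 5 were higher and 6 lower by edgeR at adjusted p under 0.05 (14.1%, against 24.8% of all tested genes), with a median log2 fold change of 0.08. MRPL11, a protein of the large subunit, fell from 88.2 and 88.6 CPM in sh-Scb to 28.2 and 29.3 CPM in sh-SAPCD2 libraries (-1.62, edgeR adjusted p = 0.00201), and MRPS27 of the small subunit from 120 and 121 to 51.6 and 46.2 CPM (-1.30, edgeR adjusted p = 0.00263). MRPS11 fell from 29.9 and 30.2 to 16.7 CPM in both knockdown libraries (-0.85, edgeR adjusted p = 0.00801). The knockdown libraries were close together in each of these. MRPL17, MRPS34 and MRPL34 were higher, with log2 fold changes of 0.53, 0.94 and 0.95. As for the subunits, 56 of the 78 were higher in the second than in the first sh-SAPCD2 library.

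Of 18 tested TCA cycle genes, 2 were higher and 2 lower (22.2%, against 24.8% of all tested genes). PDHX, which anchors a subunit of pyruvate dehydrogenase, rose from 29.2 and 30.5 to 54.1 and 51.7 CPM (0.83, edgeR adjusted p = 0.00692). DLST of the oxoglutarate dehydrogenase complex fell from 122 and 126 to 70.7 and 67.9 CPM (-0.84, edgeR adjusted p = 0.00463), and fumarase FH was lower as well (-0.41, edgeR adjusted p = 0.0448). Of 35 protein import genes, 5 were higher and 3 lower (22.9%, against 24.8% of all tested genes). TIMM17A (0.94), GRPEL1 (0.74) and OXA1L (0.51), which act at or beyond the inner membrane, were higher, and TOMM40 (-0.92), TOMM22 (-0.62) and TOMM20 (-0.32) of the outer-membrane entry gate were lower. The remaining higher genes were the matrix chaperone HSPA9 (0.46) and TIMM23 (0.44), a split by membrane that was seen after the values were known and was not tested. Cytosolic ribosomal protein genes gave 2 higher and 1 lower of 86 (3.49%, against the same 24.8%), with a median of 0.26, and 28 higher and 4 lower when GC content and length were corrected for, where 20.1% and 20.2% of all tested genes were called.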
